A study of Mus musculus with 6 samples.

Results

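A set of 6 genes of the phagocyte NADPH oxidase was followed in ribosome-bound RNA captured from hippocampus through a tag aimed at microglia. The genes were Cybb, Cyba, Ncf1, Ncf4, Rac2 and Hvcn1. They were chosen by name, as subunits of the enzyme and the proton channel that works beside it. Earlier results of these data were known when they were chosen. All 6 of 6 were among the 15388 genes of the table. The mice were Cx3cr1-cre/ERT2+; NuTRAP+, about 3 months old, and had received daily tamoxifen injections some weeks before the brain was taken. Tamoxifen activates a Cre recombinase made under the Cx3cr1 promoter, and recombination turns on NuTRAP, a reporter that puts a GFP-tagged protein on the ribosomes of the recombined cells. From each of 3 animals, numbered 201, 207 and 208, hippocampal homogenate gave an Input library, the RNA of the whole cleared homogenate, and a Positive library, the RNA bound to ribosomes captured with an antibody to GFP in translating ribosome affinity purification (TRAP). Genotype, tamoxifen and region were the same in both fractions, and the sex of each animal was not given in the labels used here. The Cx3cr1 promoter is also active in macrophages at the borders of the brain, so the tagged ribosomes need not come from microglia alone. The Cre of this line sits in the Cx3cr1 gene and disrupts that allele, in both fractions alike. Libraries held 14879734 to 17757918 reads, and values below are scaled reads, the deposited estimated counts divided by a size factor per library.

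The phagocyte oxidase moves electrons from NADPH in the cytosol across a membrane to oxygen, which makes superoxide outside the cell or inside a phagosome. Cybb encodes the catalytic subunit (gp91phox, also called Nox2) and Cyba its membrane partner (p22phox), and the enzyme is silent until cytosolic proteins, among them the products of Ncf1 (p47phox) and Ncf4 (p40phox) and the small GTPase Rac2, join it at the membrane. Hvcn1 encodes a voltage-gated proton channel that carries away the charge the electrons leave behind. In the brain the enzyme is known chiefly from microglia and other myeloid cells.

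The 6 genes lie on 4 chromosomes of the mouse (build mm10). Upstream sequences are shown for Cybb, Cyba and Ncf1, so that a reader can compare what lies before their start sites. A link between these sequences and the enrichment was not tested. These 3 of the 6 genes had an entry in the RefSeq promoter set used here (GRCm38.p6), while Ncf4, Rac2 and Hvcn1 had none. Each run is the 250 bases before the start site, 5′ to 3′ on the strand of the gene. Capitals mark matches to a CCAAT box (CCAAT), a GC box (GGGCGG) or an AP-1 site (TGANTCA), searched on both strands. These motifs, with TATAAA and GAGGAA, a longer string that contains the ETS core GGAA, were chosen after the sequences had been seen. The core GGAA alone was not searched.
Cybb, chrX:9469325-9469574, minus strand: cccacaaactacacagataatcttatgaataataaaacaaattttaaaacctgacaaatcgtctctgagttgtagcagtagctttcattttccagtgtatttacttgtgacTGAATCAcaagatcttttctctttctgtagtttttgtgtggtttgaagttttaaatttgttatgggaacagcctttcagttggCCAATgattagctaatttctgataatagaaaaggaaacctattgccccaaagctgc
Cyba, chr8:122432941-122433190, minus strand: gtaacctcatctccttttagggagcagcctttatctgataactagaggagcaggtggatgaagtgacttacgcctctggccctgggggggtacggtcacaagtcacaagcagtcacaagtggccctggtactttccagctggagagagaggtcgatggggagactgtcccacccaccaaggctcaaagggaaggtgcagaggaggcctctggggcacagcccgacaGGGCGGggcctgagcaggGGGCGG
Ncf1, chr5:134229626-134229875, minus strand: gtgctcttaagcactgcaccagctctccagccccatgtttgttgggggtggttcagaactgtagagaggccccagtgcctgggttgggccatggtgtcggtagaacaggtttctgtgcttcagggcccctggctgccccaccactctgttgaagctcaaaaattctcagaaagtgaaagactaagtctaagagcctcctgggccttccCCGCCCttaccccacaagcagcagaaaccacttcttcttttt
The Cybb window was the most AT-rich, with a GC content of 34%, against 60% for Cyba, 54.4% for Ncf1 and a median of 52.4% over all promoters of the set. It held 1 CCAAT match, 56 to 52 bases before the start, and 1 AP-1 match, 139 to 133 bases before it. Of 32851 promoter windows of the same length, 33.8% held CCAAT and 6.75% held TGANTCA. Cyba held 2 GC boxes, at 24 to 19 and at 6 to 1 bases before the start, and Ncf1 held 1, at 42 to 37 bases before it, a motif found in 32.7% of all windows. TATAAA, in 12.4% of all windows, and GAGGAA, in 23.3%, were in none of the 3 windows. No motif of the search was shared by all 3 genes. A match is a string of letters and not a shown binding site. The Cybb window lies inside the span of the Ensembl gene, which runs further upstream.

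All 6 oxidase genes were higher in Positive than in Input, by a fitted 13.6-fold (Cyba) to 36.9-fold (Ncf4) over 3 libraries of each fraction. The median log2 fold change of the 6 was 4.04, against -0.012 over the 15344 genes tested. Each of the 6 passed an adjusted p of 0.05 (edgeR quasi-likelihood test, Benjamini-Hochberg over all genes tested) and had all 3 Positive libraries above all 3 Input libraries. Such calls were common in these data. In either direction 46% of all genes tested passed, 24% as higher and 22% as lower, and 28.9% had all Positive above all Input libraries. Calls of over 5-fold, which all 6 genes reached, were made for 3.75% of genes tested. Ncf4 and Cybb passed the filter on low values only through the Positive libraries, since at least 1 of their Input libraries lay under 20 scaled reads, and such genes could hardly pass it without differing. In bulk RNA a larger share of a cell type and more RNA per cell cannot be told apart. The p-values rest on the spread between libraries within each fraction, which edgeR estimates with information shared over genes. They treat Input and Positive of 1 animal as independent, and the animals were only 3.

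**Figure D1:**
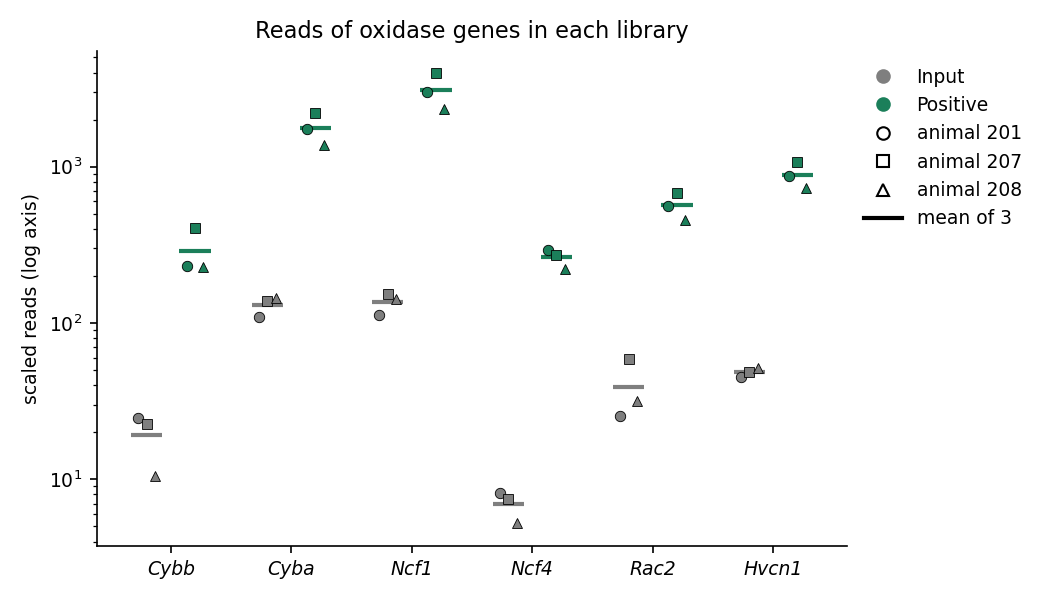
Scaled reads of the 6 oxidase genes (log axis) in the 3 Input libraries (grey) and the 3 Positive libraries (green), with a marker shape per animal and a bar at the mean of 3. For every gene the green and grey points are apart, and animal 208 is the lowest green point in all 6.

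Cybb, the catalytic subunit, lies on chrX:9435252-9487771 (ENSMUSG00000015340). It had 24.5, 22.6 and 10.5 scaled reads in the Input libraries of animals 201, 207 and 208, and 230.7, 405.5 and 228.5 in their Positive libraries. The Input library of 208 was the lowest and the Positive library of 207 stood well above the others, with no overlap between the fractions. The mean rose from 19.2 ± 7.58 to 288.2 ± 101.6 (SD, n = 3). On the log2 scale the fitted rise was 3.89 ± 0.31 (SE, edgeR adjusted p = 4.56e-07). This was the least precise of the 6 estimates, and its Input values rest on 24, 24 and 10 raw reads. Within animals its log2 ratio ran from 3.18 in 201 to 4.32 in 208, the widest range of the 6 genes.

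Cyba, which holds the catalytic subunit in the membrane and docks the cytosolic proteins, lies on chr8:122424776-122432930 (ENSMUSG00000006519). Its Input libraries held 108.6, 139.1 and 143.7 scaled reads and its Positive libraries 1745, 2198 and 1376, in the same order of animals. The fractions were far apart, and the animal with the highest Input value had the lowest Positive value. The log2 fold change was 3.77 ± 0.17 (edgeR adjusted p = 2.17e-09), with means of 130.5 ± 19.0 and 1773 ± 411.7 (SD, n = 3). Cyba was thus the least enriched of the 6 by the fitted value, and 1.67% of all genes tested had a larger one. Gm20388, a gene annotated on the opposite strand, overlaps it, and the authors' counting used strand.

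Ncf1, the cytosolic organizer that bridges the complex to the membrane, lies on chr5:134220053-134229625 (ENSMUSG00000015950). Its scaled reads were 112.4, 153.8 and 142.3 in the Input libraries and 3012, 3959 and 2336 in the Positive libraries. It was the member with the most reads in the captured fraction, and no Positive library came near any Input library. Its log2 fold change was 4.51 ± 0.19 (edgeR adjusted p = 1.03e-09), a rise from 136.2 ± 21.4 to 3102 ± 815.3 (SD, n = 3), and 0.613% of genes tested had a larger one. Gtf2ird2 overlaps it on the opposite strand.

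Ncf4, a cytosolic subunit that binds a phosphoinositide of phagosome membranes, lies on chr15:78244801-78262580 (ENSMUSG00000071715). Its Input libraries held only 8.16, 7.52 and 5.24 scaled reads, from 8, 8 and 5 raw reads, and its Positive libraries 292.4, 274.2 and 222.2. The gene was barely counted in whole hippocampus and well counted in every captured library. Its log2 fold change of 5.21 ± 0.25 (edgeR adjusted p = 3.13e-09) was the largest of the 6 and ranked 16 among all genes tested. The means were 6.97 ± 1.53 and 262.9 ± 36.4 (SD, n = 3). It was also the most even gene between animals, with log2 ratios of 5.00, 5.01 and 5.16.

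Rac2, the GTPase of blood cells that switches the assembled enzyme on, lies on chr15:78559169-78572783 (ENSMUSG00000033220). Input libraries of the 3 animals held 25.5, 59.2 and 31.5 scaled reads, and Positive libraries 562.2, 681.0 and 452.7. Animal 207 was the highest in both fractions, and the fractions did not overlap. The log2 fold change was 3.85 ± 0.25 (edgeR adjusted p = 6.08e-08), from 38.7 ± 18.0 to 565.3 ± 114.2 (SD, n = 3). Rac1, its paralog used in most cell types, rose far less, from 3907 ± 224.8 to 5158 ± 412.1 scaled reads (log2 fold change 0.40 ± 0.08, edgeR adjusted p = 0.00196). Per length of exon, the level of Rac2 was 0.0143 ± 0.00624 of that of Rac1 in Input and 0.159 ± 0.0315 in Positive (SD, n = 3). Rac1 therefore remained the more abundant of the pair in every library. Summed neuronal markers held 117413 to 137337 scaled reads in Input and 135033 to 164245 in Positive. Levels of widely expressed genes in Positive, such as Rac1, thus need not be those of microglia. The part of other cells in them was not tested. The enrichment of Rac2 exceeded that of Rac1 in 3 of 3 animals, by 3.51 ± 0.50 on the log2 scale (SD). An exact sign-flip test over 3 animals, two-sided, gave p = 0.25, the smallest it can give.

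Hvcn1, the proton channel, lies on chr5:122206804-122242297 (ENSMUSG00000064267). Its Input libraries held 44.9, 48.8 and 51.9 scaled reads and its Positive libraries 868.9, 1066 and 734.1. Input was tight, Positive followed the same order of animals as Cyba, Ncf1 and Rac2, and the fractions were well apart. The log2 fold change was 4.19 ± 0.17 (edgeR adjusted p = 6.57e-10), from 48.5 ± 3.54 to 889.5 ± 166.7 (SD, n = 3). This was the smallest p-value of the 6. Tctn1 overlaps the gene on the opposite strand.

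**Figure D2:**
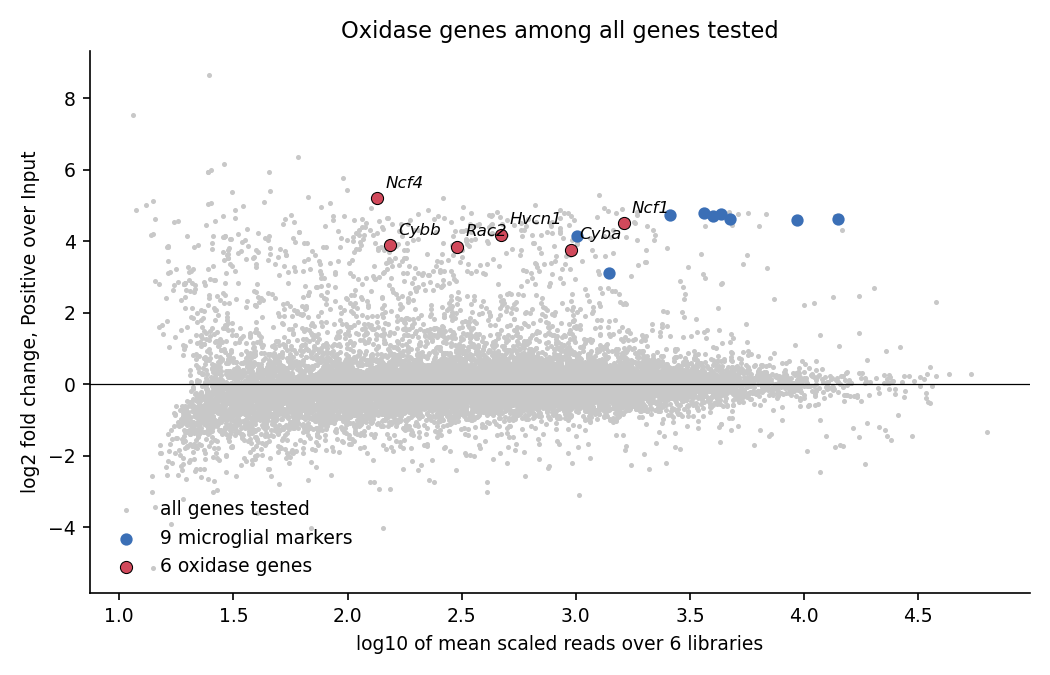
Log2 fold change of Positive over Input against the log10 of mean scaled reads, for all genes tested (grey), 9 microglial markers (blue) and the 6 oxidase genes (red, named). The oxidase genes lie between 3.77 and 5.21 and mostly to the left of the microglial markers, at fewer reads.

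The enrichment of the 6 genes was also taken within each animal, where log2 ratios ran from 3.18 to 5.00 in 201, from 3.50 to 5.01 in 207 and from 3.25 to 5.16 in 208. Ncf4 was the highest of the 6 in each animal. The median log2 ratio over the 6 was 4.33 in 201, 4.26 in 207 and 3.92 in 208. A list of 9 microglial markers had medians of 4.58, 4.92 and 4.36 in the same animals, above the oxidase median in all 3, while Ncf4 was above the marker median in all 3 and Ncf1 in 201. Cybb was taken as the reference for differences between genes because it is the catalytic subunit. Ncf4 was above Cybb in 3 of 3 animals, by 1.19 ± 0.55 on the log2 scale (SD, exact sign-flip p = 0.25). Ncf1 differed from Cybb by 0.61 ± 0.92 (exact p = 0.5), Hvcn1 by 0.28 ± 0.79 (exact p = 0.75), Rac2 by 0.03 ± 1.03 (exact p = 1.0) and Cyba by -0.13 ± 0.94 (exact p = 0.75). For these 4 the spread between animals was larger than the difference itself, and the sign of the last 3 turned under at least 1 other setting. With 3 animals the sign-flip test cannot go below 0.25 for any of the 6 pairs tested, so no adjusted value is given, and its p-values do not show that the genes were enriched alike.

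Levels of different genes can be compared only per length of transcript, and scaled reads were therefore divided by kilobases of exon. In Positive, Cyba came first with 1706 ± 396.2 scaled reads per kilobase, followed by Ncf1 with 846.9 ± 222.6 (SD, n = 3). Hvcn1 had 249.7 ± 46.8 and Rac2 182.2 ± 36.8, and the libraries of these neighbours overlapped. Ncf4 had 130.2 ± 18.0 and Cybb, the lowest, 49.6 ± 17.5. All other neighbours in this order were apart in range. For Rac2 and Ncf4 the gap was narrow, 145.9 in the lowest Rac2 library against 144.8 in the highest of Ncf4. The 2 membrane subunits, which pair in the protein complex, thus stood at opposite ends of the order of transcripts, with Cyba at 35.4 ± 6.18 times the level of Cybb per exon length and at 18.8 ± 3.28 times per coding length. Ncf1 was at 17.5 ± 2.83 times Cybb and at 6.48 ± 1.29 times Ncf4 per exon length. Per coding length the order of the 6 means was the same, but fewer neighbours were apart. The libraries of Cyba (3078 ± 714.7) and Ncf1 (2488 ± 653.8) then overlapped. So did those of Ncf4 (258.6 ± 35.8) and Cybb (168.5 ± 59.4).

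**Figure D3:**
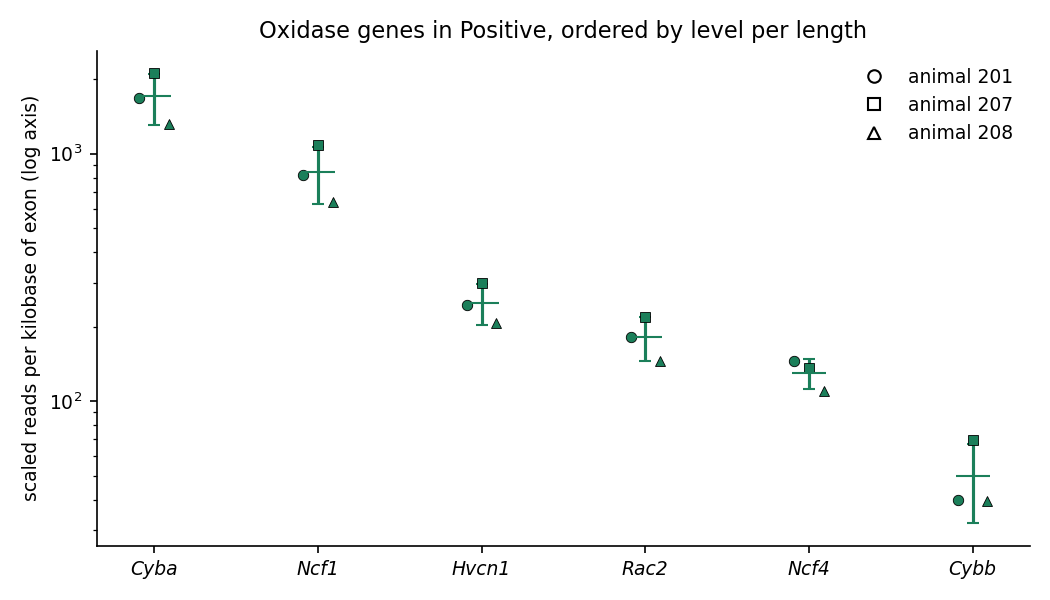
Scaled reads per kilobase of exon (log axis) of the 6 oxidase genes in the 3 Positive libraries, with a marker shape per animal and the mean ± SD. The order runs from Cyba at 1706 to Cybb at 49.6, and only Hvcn1 and Rac2 overlap among neighbours.

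Reads of each gene were also set against the summed reads of the 9 microglial markers of the same library (P2ry12, Cx3cr1, Siglech, Itgam, Tmem119, Csf1r, C1qa, Aif1 and Sall1). All 9 were higher in Positive, and their sum ran from 3581 to 3692 scaled reads in Input and from 70981 to 103490 in Positive. Per 1000 of these reads, Rac2 had 6.61, 6.58 and 6.38 in the Positive libraries of 201, 207 and 208, and Hvcn1 had 10.2, 10.3 and 10.3. The differences between animals seen in the scaled reads of both genes were thus nearly absent on this scale. Cyba averaged 36.1 ± 5.81 per 1000 in Input and 20.4 ± 0.934 in Positive, and Hvcn1 13.4 ± 1.18 and 10.3 ± 0.062 (SD, n = 3), with the fractions apart. Rac2 went from 10.7 ± 5.07 to 6.52 ± 0.127, also apart, though the lowest Input value, 6.91, lay just above the highest Positive value. Ncf4 went the other way, from 1.92 ± 0.401 to 3.07 ± 0.398, without overlap. Its Input ratios rest on only 8, 8 and 5 raw reads, and it passed the filter on low values only through Positive. Ncf1 was 37.7 ± 6.43 in Input and 35.5 ± 2.67 in Positive, and Cybb 5.28 ± 2.04 and 3.28 ± 0.605, and both overlapped between fractions. With 3 libraries against 3 an exact permutation test cannot go below 0.10, and none was run on these ratios.

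**Figure D4:**
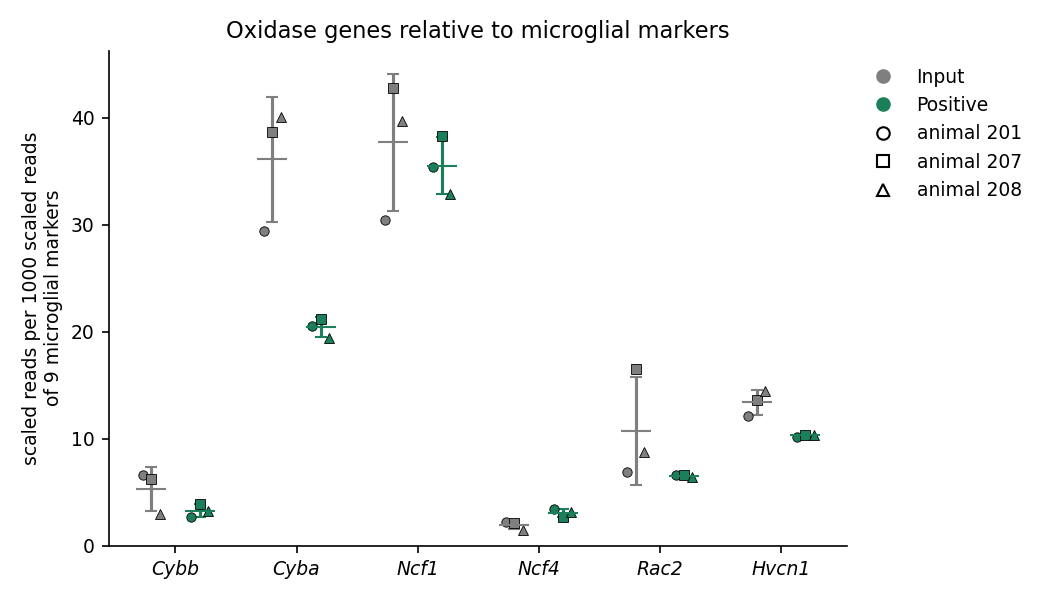
Scaled reads of each oxidase gene per 1000 scaled reads of 9 microglial markers, in Input (grey) and Positive (green), with a marker shape per animal and the mean ± SD. Cyba, Rac2 and Hvcn1 are lower in Positive and Ncf4 higher, while Ncf1 and Cybb overlap. The Input points of Ncf4 rest on 8, 8 and 5 raw reads.

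Other cells that use this oxidase were checked by their markers. All 7 border macrophage markers, such as Mrc1, Lyve1 and Pf4, were higher in Positive (median log2 fold change 4.15), and their sum ran from 197.6 to 255.2 scaled reads in Input and from 2645 to 5789 in Positive, highest in animal 207. Of 10 neutrophil markers only Csf3r was tested (log2 fold change 3.35 ± 0.18), at 541.7 to 795.6 scaled reads in Positive, and S100a8, S100a9 and Ly6g were among the 9 not analysed here. Ly6c2 was the tested monocyte marker of 6, at 20.8 to 24.7 scaled reads in Positive, and Ccr2 was not analysed here. Of 6 B cell markers Cd79b (3.97 ± 0.44) and Ighm (3.22 ± 0.14) were tested, and of 7 T and NK cell markers Cd4 (3.68 ± 0.45). Pf4, Lyve1, Ms4a7, Ly6c2, Cd79b and Cd4 passed the filter on low values only through Positive. Such genes could hardly pass it without differing. The part of these cells in the oxidase values was not tested. Oligodendrocyte markers were lower (6 of 6, median -2.68), astrocyte markers had a median of -0.33 (2 of 6 lower), neuronal markers of 0.14 (2 of 6 higher) and endothelial markers of 1.97 (6 of 6 higher). For all genes tested the shares were 24% higher and 22% lower.

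The paralogs of the oxidase and the proteins that help to assemble it had smaller fold changes than the 6 genes. Of 14 listed, 8 were tested, 5 were higher and 1 was lower, and none reached 5-fold (median log2 fold change 0.51). Among all genes tested 24% were higher and 22% lower. Rhog, a GTPase close to Rac, rose most, by 1.59 ± 0.12 (SE). BC017643, the table's name for Cybc1, the chaperone without which the membrane pair is unstable, rose by 0.96 ± 0.13 (edgeR adjusted p = 5.89e-05), from 350.9 ± 29.2 to 683.3 ± 112.2 scaled reads. The fold change of the chaperone was far smaller than those of Cybb and Cyba, its clients. A fold change over Input does not give the level in microglia, which was not tested. Sh3pxd2a rose by 1.01 and Rap1a, which copurifies with the membrane pair, by 0.62. Sh3pxd2b (-0.08, adjusted p = 0.692) and Noxo1 (-0.12, adjusted p = 0.792), an organizer related to Ncf1, did not pass the test in edgeR. Rac3, the neuronal Rac, fell by 0.36 (edgeR adjusted p = 0.0426), a call that was lost when any of 4 libraries was left out, namely Input 207, Input 208, Positive 201 or Positive 207 (adjusted p up to 0.2). Nox1, Nox3, Nox4, Duox1, Duox2 and Noxa1 were not analysed here.

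Genes that act on the switching of the oxidase, activators as well as the Rac inhibitors Arhgdia and Arhgdib, differed widely in enrichment. Of 23 tested, 17 were higher, 1 was lower and 7 were over 5-fold (median log2 fold change 0.91). Over all genes tested 24% were higher, 22% lower and 3.75% higher by over 5-fold. The list, like the others, was chosen with earlier results of these data known. Of the genes over 5-fold, Pla2g4a passed the filter on low values only through Positive. The largest were Pik3cg, the phosphoinositide kinase of leukocytes (4.68 ± 0.20), Vav1, an exchange factor for Rac (4.58 ± 0.16), and Dock2, another (4.32 ± 0.19), each within the range of the oxidase genes. The 4 genes with the most reads had log2 fold changes of 0.18 to 0.70. Prkcb, a kinase that phosphorylates the Ncf1 protein, averaged 5918 ± 487.5 scaled reads (SD) in Input against 6909 ± 689.8 in Positive (0.22, edgeR adjusted p = 0.0696). It passed in the fit with the animal as a block (edgeR adjusted p = 0.0285) and without Positive 201 (0.0341). Pak1 (0.18, adjusted p = 0.0973) did not pass in edgeR, while Arhgdia, which holds Rac in the cytosol, rose by 0.70 and Prkca by 0.32. Prkcz fell by 0.29 and Akt1 rose by 0.22, and neither call held through every omission of a library. Without Input 207, Input 208, Positive 201 or Positive 207 the adjusted p of Prkcz was up to 0.072, and without any library but Positive 208 that of Akt1 was up to 0.0921. Prkca was lost without Input 208 (adjusted p = 0.0529).

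Of 16 genes tested that supply NADPH, the electron donor, 7 were higher, 2 were lower and none was over 5-fold (median log2 fold change 0.16). In either direction 46% of all genes tested were called, so the number of calls in this list is not a result about it. H6pd (1.52 ± 0.18), G6pdx (0.82 ± 0.13) and Pgd (0.77 ± 0.10), dehydrogenases of the pentose phosphate route in the endoplasmic reticulum and the cytosol, rose most. Idh2 rose by 0.59, Taldo1 by 0.47 and Tkt by 0.23, the last of these lost without Input 207 or Input 208 (edgeR adjusted p = 0.0731 and 0.0909). The malic enzyme Me1 (-0.55 ± 0.09) and the mitochondrial NAD kinase Nadk2 (-0.48 ± 0.09) fell, and the cytosolic Nadk had a log2 fold change of 0.18 (adjusted p = 0.117), which passed without Positive 208 (edgeR adjusted p = 0.0358).

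Genes that remove superoxide and peroxide, the products of the oxidase, were called about as often as genes at large. Of 21 tested, 6 were higher, 6 were lower and none was over 5-fold (median log2 fold change 0.03), where 24% of all genes tested were higher and 22% lower. Gpx1 (1.00 ± 0.14), Gpx3 (0.98 ± 0.23) and Cat, catalase (0.86 ± 0.10), rose most. Gpx8 (-1.20 ± 0.30), Prdx6 (-0.61 ± 0.12) and Gpx4 (-0.54 ± 0.08) fell most. Sod1, the cytosolic superoxide dismutase, fell by 0.32 (edgeR adjusted p = 0.0126), a call lost without Input 207 (adjusted p = 0.0817). Prdx5 (0.07) and Prdx2 (0.03) did not pass, and their signs depended on the setting.

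**Figure D5:**
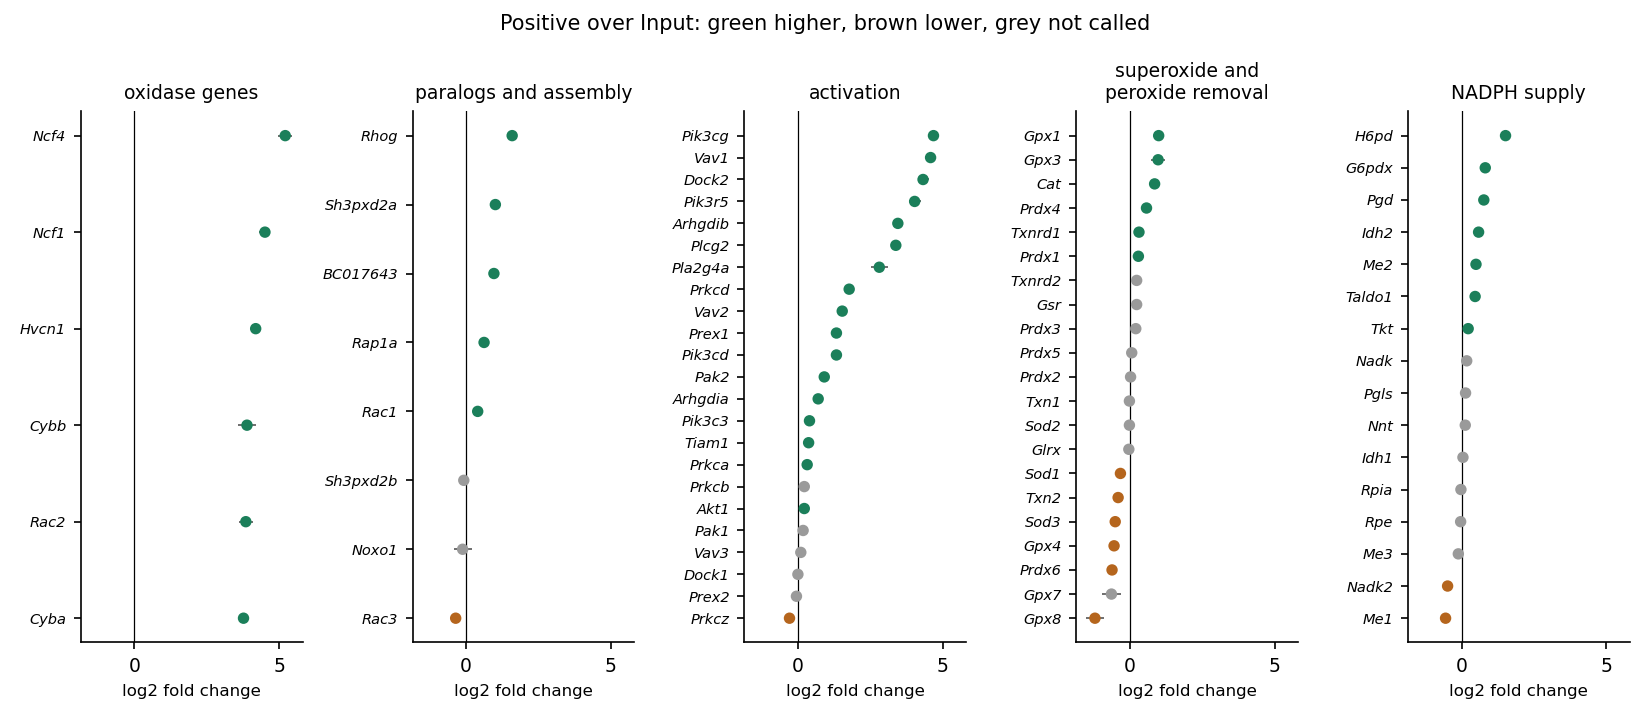
Log2 fold change of Positive over Input (points, bars ± SE) for the 6 oxidase genes and for 4 lists of related genes, green where higher, brown where lower and grey where not called. The oxidase genes lie at 3.77 and above, a level that in the other lists only some activation genes reach.

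The genes whose profile over the 6 libraries was nearest to the median profile of the oxidase genes were Epsti1, Alox5ap, Lyn, Cd86 and Pycard. Their Euclidean distances on the log2 scale were 0.136, 0.141, 0.181, 0.199 and 0.221, among genes averaging 100 scaled reads or more. Of the oxidase genes themselves, Hvcn1 was nearest to that median at 0.271, and Ncf4, at 1.25, and Cybb, at 1, were farthest.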

How the data were processed

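RNA of 3 Input and 3 Positive libraries was analysed, grouped by the fraction label. Directional poly(A) libraries were sequenced in pairs, and the authors aligned reads to mm10 in Strand NGS with strand and counted them by Ensembl gene. In the table the authors deposited, raw columns are expected counts, estimated counts that can be fractional, and 17.3% to 23.1% of values per library were whole. Of whole values under 60, 64.7% to 69.3% were even, so both mates may have been counted, and the number of fragments may be smaller than the reads. The deposited normalized columns, on a log2 scale relative to Input, were used only in an alternative. Only genes that reached 20 reads in all libraries of a fraction had been kept by the authors, and the others were not analysed here.

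Expected counts were rounded and tested in R 4.3.3 with the edgeR 4.0.16 quasi-likelihood test, unpaired as in the study's methods, with median-of-ratios (RLE) scaling. Genes above 20 scaled reads in all 3 libraries of either fraction were kept (15344 tested, 44 removed). Benjamini-Hochberg adjustment ran over these genes, and the threshold was an adjusted p of 0.05. Log2 ratios per animal used a pseudocount of 1, and gene lengths were those of GENCODE M21 exons. Input and Positive of 1 number come from the same animal per the labels, and the correlations of their deviations from the group means were 0.273, 0.0847 and 0.15 over 12122 genes. Alternatives were TMM and total count scaling, no filter, over 100 scaled reads, DESeq2 1.42.0, the animal as a block and each library left out. Added after seeing the data were limma 3.58.1 on the deposited log2 values and reads divided by 2. In 5 simulations of 200 changed genes for this comparison, with 15000 to 15028 genes tested, 93.7% of genes changed by 1 on the log2 scale and 100% of those changed by 3 were called. Simulated libraries were independent and few genes changed, whereas 7054 genes were called in the data and the fractions share animals. These shares give recovery only, and not how many calls in the data are false.

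The members and gene lists were chosen with earlier results of these data known. Genes named from the activation, removal and NADPH supply lists were the 4 with most reads and, of those called, the 3 largest and 3 smallest log2 fold changes; all tested paralogs and the 5 nearest profiles were named. Other subunits of the complex were not analysed here, and 1 microglial marker was left out of its list after the analysis, for a reason unrelated to its values, and is not reported here.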

Additional observations from a re-analysis of the deposited data

How the results depend on the processing

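The 6 oxidase genes kept their direction and passed under all 14 alternatives run for each, with log2 fold changes of 3.56 to 4.10 (Cybb), 3.58 to 3.92 (Cyba), 4.29 to 4.67 (Ncf1), 5.05 to 5.33 (Ncf4), 3.62 to 4.31 (Rac2) and 4.04 to 4.31 (Hvcn1), and an adjusted p of at most 0.000279. Over 41 named genes and 572 gene and alternative pairs, 539 kept direction and side of the threshold, 22 lost the call, 3 gained it and 8 changed sign. Those 8 were values near 0. Sh3pxd2b went to 0.004 and 0.051 and Noxo1 to 0.057 and 0.125 without Input 201 and without Positive 208, and with any library left out they ranged from -0.203 to 0.051 and from -0.436 to 0.125. With total count scaling Prdx5 went to -0.012 and Prdx2 to -0.049, and Prdx2 went to -0.006 without Input 201 and -0.011 without Positive 201, in a range up to 0.061. Akt1 and Tkt also lost their calls with total count scaling and with limma, and Prkcz with limma. Total count scaling moved the median of all genes to -0.090 and the share of calls that were higher from 52.2% to 41.6%. Of differences between oxidase genes, Cyba minus Cybb went to 0.09 with a pseudocount of 5 and ranged from -0.60 to 0.34 with an animal left out, Rac2 minus Cybb from -0.56 to 0.35 and Hvcn1 minus Cybb from -0.11 to 0.69. The cause was not tested. With the animal as a replicate block, 7567 genes were called in place of 7054, all 6 oxidase genes among them, and Prkcb passed (0.22, adjusted p = 0.0285), while no other named gene changed its call under the pairing. Counts of all genes called ran from 5541 to 7259 with a library left out, and were 6682 with DESeq2. The Input values of Ncf4 and Cybb rest on 5 to 24 raw reads. Both genes met the authors' filter only through Positive, under every alternative alike. Their calls could therefore hardly fail in any of them.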
